A study of Mus musculus with 2 samples.

Results

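Cycling keratinocytes were the epidermal cells of day 5 mouse wounds that carried RNA of the proliferation genes *Mki67* and *Top2a*. They were chosen by measured values in 3 steps. Cells in which 500 or more genes were detected were kept if mitochondrial transcripts took no more than 6% of their UMIs (unique molecular identifiers, each counted as 1 RNA molecule). Those with at least 1.5% of their UMIs in *Krt5*, *Krt14*, *Krt1*, *Krt10*, *Krt6a*, *Krt16*, *Krt17* and *Lgals7*, under 0.5% in the collagens *Col1a1* and *Col3a1*, and fewer than 5 UMIs of the macrophage gene *Lyz2* formed the keratinocyte gate. Gate cells with 3 or more UMIs of *Mki67* and *Top2a* together were called cycling. This left 76 cells of 23089 deposited, 15514 within the limits and 2178 in the gate. Of these, 68 came from the control-labelled library and 8 from the other, so most values below set 68 cycling cells against 1892 non-cycling gate cells of the control-labelled library.

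The study depleted macrophages that carry CD206, the product of *Mrc1*, from healing skin by placing the diphtheria toxin receptor under the *Mrc1* promoter (*Mrc1-DTR* mice). Male C57BL/6 mice of 7 to 9 weeks were used, and live, 7AAD-negative cells of the wounds of 3 pooled mice made up each of the 2 single-cell libraries. The labels give both groups as *Mrc1-DTR* mice, one treated with PBS and one with diphtheria toxin, whereas the methods of the study give its controls as wild-type mice that also received toxin; the 2 descriptions cannot be reconciled from the files. They are called the control-labelled and the toxin-labelled library here, since the cell totals in the study are attached to the groups the other way round. Over all cells within the limits *Mrc1* was at 65.5 CPM (counts scaled to 1e+06 UMIs) in the control-labelled and 267 CPM in the toxin-labelled library. However, the makeup of the libraries differed, with 1427 and 3889 macrophages, 2324 and 397 fibroblasts and 1960 and 218 gate cells. Within macrophages *Mrc1* was at 464 (450 to 479) and 435 (428 to 442) CPM, lower in the toxin-labelled library. Without replicate libraries, this small difference cannot settle which library was depleted, and the groups here follow the labels. Cycling keratinocytes held 0 UMIs of *Mrc1* in either library, and 37 barcodes occurred in both libraries, none of them in a cycling keratinocyte.

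Keratinocytes divide in the basal layer of the epidermis, where they express *Krt5*, *Krt14* and *Krt15* and are anchored to the basement membrane. Daughter cells that leave this layer stop dividing, switch to *Krt1* and *Krt10* in the spinous layer and later build the cornified envelope. At a wound edge, keratinocytes also switch on *Krt6a*, *Krt6b*, *Krt16* and *Krt17*. A dividing cell copies its DNA in S phase with the MCM helicase, polymerases and fresh histones, and then makes spindle, kinetochore and mitotic cyclin genes in G2 and M phase.

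Because each group was 1 library, no test between conditions or between cells was possible. Values are sums of UMIs over cells, given in CPM, and the log2 ratio of cycling to non-cycling cells was taken after adding 1 CPM to both. Ranges in parentheses are exact 95% intervals, which cover counting error only and not the spread between mice. A cycling cell had a median of 19071.5 UMIs (7875 to 47310) and a non-cycling gate cell 12723, and the 2 sums held 1423865 and 26250435 UMIs.

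*Krt5* is one of the gate genes, so its presence is a value of the choice, whereas *Krt15* is not. Of the 68 control-labelled members, 66 had *Krt5* UMIs, with a lowest value of 0, a median of 50 and a highest of 207 UMIs per cell, and 63 had *Krt15* UMIs, with a median of 13 and a highest of 147. However, 5 of the 68 (7.35%) held 10 or more UMIs of 14 immune genes, against 12 of 1892 non-cycling cells (0.634%) and 0 of the 8 toxin-labelled members. One of the 5 carried 256 UMIs of *Cd207*, the Langerhans cell lectin, and 434 of *Cd74* beside 0 UMIs of *Krt5* and *Krt14*. The other 4 carried transcripts that cytotoxic lymphocytes express. In the first of them these were *Gzmb* and 1 UMI of *Nkg7*, so it was not assigned to a cell type. All 4 also had *Fcer1g* (19, 14, 18 and 20 UMIs) and *Tyrobp* (13, 15, 13 and 11). All 4 had *Gzmb* (74, 4, 18 and 20 UMIs) and *Nkg7* (1, 20, 20 and 22), 3 had *Gzma* (107, 48 and 20) and *Il2rb* (10 in each), and none had a UMI of the *Cd3* genes. T cell receptor transcripts were present in 3 of the 4, with *Trac* at 1 and 2 UMIs in 2 cells and *Trdc* at 2 and 7 UMIs in 2 cells. These 4 also held 117, 227, 29 and 276 UMIs of *Krt5* and *Krt14*. Scrublet, which scores likely doublets, marked 4 of these 5 and none of the other 63 members. In the toxin-labelled library it found no threshold, and 2 of the 8 members were in its top 8% of scores. The remaining 63 held at most 6 such UMIs, and results that rest on the 5 cells are also given without them.

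The values at the threshold form a gradient. Summed over gate cells, 79 genes of 4 G2/M lists (mitotic kinases, kinetochore, spindle, anaphase promoting complex) stood at 1209 CPM in cells with 0 UMIs of *Mki67* and *Top2a*. The 26 cells with 2 UMIs, just outside, reached 2444 CPM, the 6 cells with 3 UMIs, just inside, 3301 CPM, and the 29 cells with 10 or more 6564 CPM. The keratin limit had cells close to both sides too. Of the 187 control-labelled cells with 1.5% to 2% of UMIs in the gate genes 14 were cycling, and 5 of the 82 cells with 1% to 1.5% would have been. An upper limit of 2000 genes stands in the methods, but the deposited cells, with medians of 2204 and 2045 genes, were not held to it and it was not used here. Under it 0 of 146 control-labelled and 0 of 14 toxin-labelled gate cells would be cycling, since a cycling cell held a median of 3826 genes.

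In all, 3.47% (2.70 to 4.38) of control-labelled and 3.67% (1.60 to 7.10) of toxin-labelled gate cells were cycling, so the intervals overlap widely. Since deeper cells pass a UMI limit more easily, each cell was also thinned to 5000 UMIs, which left out 71 and 13 shallower gate cells. The share with at least 1 UMI of *Mki67* or *Top2a* was then 5.29% (4.33 to 6.40) and 6.83% (3.78 to 11.2). Treated in the same way, fibroblasts of the control-labelled library gave 2.27%, macrophages 6.98% (5.37 to 8.90) and mature dendritic cells, which should not divide, 20.0% (10.8 to 32.3) of 60 cells. Median depths before thinning were 12895.5 UMIs in gate cells, 11903.5 in fibroblasts, 5693 in macrophages and 8049 in mature dendritic cells. If mature dendritic cells do not divide, a single UMI of these genes was no mark of division, and the thinned shares are not read as such. Before thinning, the 81 control-labelled gate cells with 1 UMI had a G2/M sum of 1448 CPM (1384 to 1514). Those with 0 UMIs had 1209 CPM (1195 to 1223). At the limit of 3 UMIs, 3 of 71 mature dendritic cells passed too, but their G2/M sum, 999.7 CPM, was below the 1493 CPM of the others, whereas in the toxin-labelled library 3 of 76 passed, with 3061 against 1343 CPM.

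Against the non-cycling gate cells, 1022 of 9882 genes with at least 50 UMIs (10.3%) were at least 2-fold higher in cycling cells and 672 (6.8%) at least 2-fold lower, around a median log2 ratio of 0.17 over all genes. *Mki67* (ENSMUSG00000031004), which coats mitotic chromosomes, and *Top2a* (ENSMUSG00000020914), the topoisomerase that untangles replicated DNA, were the values used for the choice. They stood at 196 and 296 CPM against 1.33 and 3.73 CPM. *Mki67* ran from 0 through a median of 3 to 17 UMIs per cycling cell, and *Top2a* from 0 through 5 to 18, since a cell could qualify with one of them alone.

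Among genes with at least 200 UMIs, the largest ratios beyond these belonged to chromosome and division genes. *Pclaf*, which binds the sliding clamp PCNA at the replication fork, was at 390 against 5.14 CPM, a log2 ratio of 5.99 (5.75 to 6.24), and had a median of 7 and a highest value of 28 UMIs per cycling cell. *Birc5*, the survivin subunit of the chromosomal passenger complex, followed at 5.73 (5.37 to 6.07), and its partner *Cdca8* was at 4.81 (4.49 to 5.13). The S phase histone *Hist1h2ap* had 5.52 (5.21 to 5.83), although histone genes of this family are nearly identical and their reads may be shared. The condensin subunit *Smc2* had 5.27 (4.98 to 5.57), *Ube2c*, the ubiquitin-conjugating enzyme of the anaphase promoting complex, 5.22 (4.96 to 5.48), and the kinetochore gene *Spc24* 5.09 (4.76 to 5.41). In each of these 7 genes the median non-cycling cell held 0 UMIs. *Gzma* was the exception among the 10, since its 175 UMIs lay in 3 cells, 107 of them in 1, and every other cycling cell held 0 UMIs of it, beside a log2 ratio of 4.94 over all 68.

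The 10 lowest ratios were led by genes of terminal differentiation. *Lce3d*, *Lce3c*, *Lce3e* and *Lce3f* code for late cornified envelope proteins, and *Lce3d* was at 0.702 CPM, from 1 UMI in 68 cells, against 143 CPM. *Flg*, the filaggrin precursor of the granular layer, had 0 UMIs in the cycling sum and 1179 in the other, which is at least 21.3-fold lower when 3 counts over the whole group are taken as the floor. On the same floor *2310050C09Rik* was at least 19.7-fold, *Lce3e* at least 18.5-fold, *Nccrp1* at least 11.9-fold and *Slurp1* at least 11.4-fold lower. *Krt6b* had 2 UMIs against 2401, and *Alox12b*, a lipoxygenase of the skin barrier, 1 against 1412.

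In the origin licensing and helicase list, all 12 of 17 genes that reached 50 UMIs were at least 2-fold higher, with a median of 2.62. Counts over all control-labelled gate cells, for this and every later list, stand beside 10.3% of all genes higher and 6.8% lower. Genes of this and the following cell cycle lists reached the limit partly through the cycling sum, so counts and medians describe only the genes that passed, and the sum over a whole list is given beside them. Over these 17 it was 584 CPM in cycling against 70.4 CPM in non-cycling cells. The helicase subunits *Mcm3*, *Mcm5* and *Mcm7* had log2 ratios of 4.66 (4.31 to 5.00), 4.42 (4.06 to 4.77) and 3.02 (2.58 to 3.44), and *Gins2* had the smallest, 1.22 (0.46 to 1.91).

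Of the polymerase and fork list, 18 of 19 measured genes were at least 2-fold higher, with a median of 2.48, but the sum over all 23 was 1686 against 1213 CPM, a log2 ratio of 0.47 (0.41 to 0.53), since *Top1* alone made up 908 CPM of it. *Uhrf1*, which guides maintenance methylation to new DNA, led with 4.80 (4.37 to 5.19), ahead of the single-strand binding subunit *Rpa2* at 3.77 and the ligase *Lig1* at 3.42. *Top1*, a topoisomerase that also serves transcription, was at -0.23 (-0.32 to -0.15). All 15 nucleotide supply genes were measured, 10 of them passed 2-fold and none was 2-fold lower, and they summed to 1093 against 462 CPM. The ribonucleotide reductase subunit *Rrm2* had 3.88, thymidylate synthase *Tyms* 3.55 and the dUTPase gene *Dut* 3.45, whereas *Nme1* had 0.16 (0.02 to 0.30). Of 17 measured histone and chromatin genes 14 were higher, with a sum over all 21 of 5916 against 1163 CPM, led by the linker histone *Hist1h1b* at 5.70 (5.33 to 6.05). *Hist1h2bc* went the other way at -1.27 (-1.74 to -0.82).

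All 17 measured of 23 centromere and kinetochore genes were at least 2-fold higher, with a median of 4.21, and the sum over the 23 was 1085 against 34.8 CPM. *Birc5*, *Spc24* and *Spc25* were the largest and *Cenpq*, at 2.99 (2.54 to 3.43), the smallest. All 8 measured of 19 mitotic cyclins and kinases were higher, with a median of 3.75, and the sum over the 19 was 642 against 59.6 CPM, or 3.41 (3.29 to 3.53). *Cdk1*, the kinase that drives entry into mitosis, was at 100 against 0.648 CPM, or 5.94 (5.57 to 6.26), followed by the kinase *Pbk* at 5.41 and the cyclin *Ccnb2* at 4.77, while *Wee1*, which restrains *Cdk1*, had 1.23 (0.85 to 1.60).

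In the spindle list 18 of 19 measured genes were at least 2-fold higher, with a median of 3.91, while the sum over all 27 was 2923 against 798 CPM, or 1.87 (1.82 to 1.92). *Racgap1*, needed for cytokinesis, had 5.31 (4.89 to 5.64), the motor *Kif11* 5.03 and *Hmmr* 4.91. *Stmn1*, which destabilises microtubules and is one of the named markers of these cells, was at 843 against 61.4 CPM, or 3.76 (3.65 to 3.87). It ran from 0 through a median of 16 to 60 UMIs in cycling cells and had a median of 0 and a highest value of 29 in the others, so the 2 sets of cells overlap. The tubulin *Tubb4b*, at -0.16 (-0.26 to -0.06), was the one spindle gene below 0. The condensin and cohesin list had 7 of 8 measured genes higher and a sum over all 14 of 952 against 214 CPM, the exception being the securin *Pttg1* at 0.14 (-0.37 to 0.61), and the anaphase promoting complex list had 7 of 9 and a sum over all 10 of 1343 against 349 CPM, from *Ube2c* down to the core subunit *Cdc16* at 0.55. Of 10 measured repair genes 8 were higher, with a sum over all 18 of 402 against 60.7 CPM, among them the helicase *Blm* at 3.62 (3.04 to 4.13).

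**Figure D1:**
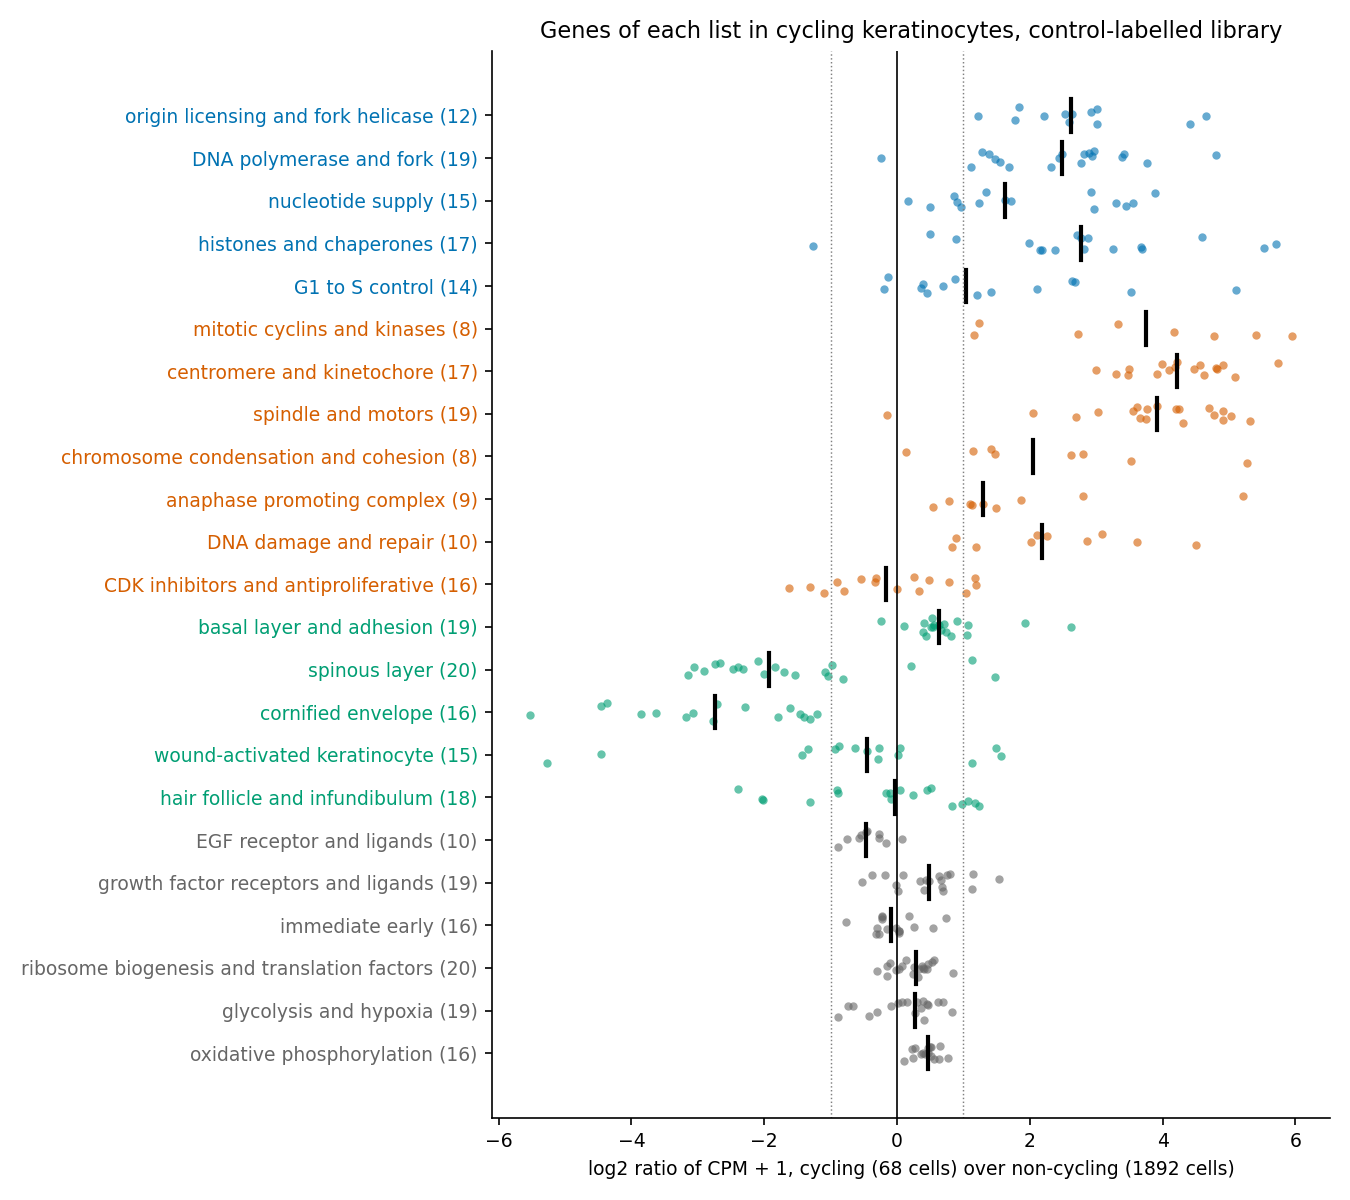
Each point is 1 gene with at least 50 UMIs in the control-labelled library, placed by its log2 ratio of CPM + 1 in 68 cycling over 1892 non-cycling keratinocytes, and the black bars are list medians with the number of genes in brackets; dotted lines mark 2-fold. The replication and mitosis lists lie to the right, with medians up to 4.21, the cornified and spinous lists to the left, and the metabolism lists within 2-fold.

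Genes of earlier cell cycle control were mixed. In the G1 to S list 7 of 14 measured genes were at least 2-fold higher and none lower, with a median of 1.04 and a sum over all 21 of 730 against 389 CPM. Cyclin A, *Ccna2*, had 5.11 (4.67 to 5.44), *Cks1b* 3.52 and *E2f8* 2.67. The D cyclins that respond to growth signals were close to the other keratinocytes, with *Ccnd1* at 0.45 (-0.13 to 0.99) and *Ccnd2* at 0.36 (0.17 to 0.55), as were *Cdk6* at -0.20 (-0.45 to 0.04) and *Myc* at -0.13 (-0.63 to 0.34). Of 16 inhibitors of the cycle 3 were at least 2-fold higher and 3 lower, beside 10.3% and 6.8% of all genes, and 2 and 2 of 15 in cells with low *Krt1* and *Krt10* and no immune RNA. The higher ones were *Cdkn2d* at 1.20 (0.48 to 1.86), *Trp53inp1* and *Cdkn2c*, and the lower ones *Ccng2*, *Cdkn2b* and *Mxd1*, an antagonist of MYC that accompanies differentiation, the last at -1.62 (-1.85 to -1.41). The p53 target *Cdkn1a* was present in every cycling cell, from 1 through a median of 17 to 69 UMIs, at 983 against 1226 CPM.

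The promoters of the genes that were higher together were read for letters known from cell cycle genes, and 3 of the 10 largest ratios are printed as examples, picked because they hold such letters. *Birc5*, ranked above *Ube2c*, held none of them, and *Gzma*, which is no cell cycle gene, held both CCAAT and CHR letters in its window of 300 bases. The windows printed run from 150 bases before to 10 bases after the start of the RefSeq transcript on GRCm38.p6, 5′ to 3′ on the strand of the gene, and capitals mark CCAAT or its reverse complement, the CHR letters TTTGAA or theirs, and an E2F-type match. *Ube2c* lies at chr2:164769779-164769938 on the plus strand, *Top2a* at chr11:99024180-99024339 on the minus strand and *Pclaf* at chr9:65890173-65890332 on the plus strand.
Ube2c: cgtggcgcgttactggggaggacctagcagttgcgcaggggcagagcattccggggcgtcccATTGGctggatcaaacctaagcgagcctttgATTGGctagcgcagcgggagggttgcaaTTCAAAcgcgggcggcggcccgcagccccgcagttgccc
Top2a: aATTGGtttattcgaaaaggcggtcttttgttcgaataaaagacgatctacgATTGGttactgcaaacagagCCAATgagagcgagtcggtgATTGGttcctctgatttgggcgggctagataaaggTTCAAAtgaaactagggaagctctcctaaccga
Pclaf: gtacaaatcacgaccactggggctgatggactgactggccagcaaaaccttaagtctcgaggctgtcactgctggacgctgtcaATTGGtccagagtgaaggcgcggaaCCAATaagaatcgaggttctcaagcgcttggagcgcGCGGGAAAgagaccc
*Ube2c* and *Top2a* hold several CCAAT letters and a CHR match, 29 and 23 bases before the start. *Pclaf* holds CCAAT letters and an E2F-type match, TTTCCCGC on the other strand, and no CHR match.

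Over whole windows of 300 bases, CCAAT and CHR letters occurred together in 31 of the 68 matched genes of the G2/M lists (45.6%), in 3 of the 48 matched genes of the S lists (6.25%) and in 7.97% of all 27025 genes with a window. The E2F-type letters (TTTGGCGC, TTTCCCGC, TTTCGCGC or TTTGCCGC) occurred in 16 of 48 S genes (33.3%), 4 of 68 G2/M genes (5.88%) and 2.6% of all genes. Both strands were searched, matches could overlap, and a gene with several starts counted once. Of the 55 and 79 list genes, 48 and 68 had a window. These are counts of letters and not of bound sites.

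The layer genes of the epidermis ran from slightly higher to far lower. Of 19 basal genes, which all reached 50 UMIs, 18 had a ratio above 0, with a median of 0.64. At least 2-fold higher were 4 of the 19, beside 10.3% of all genes. *Krt5* was at 2960 against 1900 CPM, 0.64 (0.59 to 0.68), and *Krt15*, at 1377 against 872 CPM, 0.66 (0.59 to 0.73), so both marker keratins were shared with the non-cycling cells. The largest was *Ptn*, the secreted growth factor pleiotrophin, at 269 against 43.0 CPM, or 2.62 (2.45 to 2.78). It had a median of 4 and a highest value of 24 UMIs per cycling cell, and a median of 0 with the same highest value in the others. *Sostdc1*, an inhibitor of BMP and Wnt signals, had 1.93 (1.25 to 2.57) from 21 UMIs in 9 cells, the matricellular gene *Postn* 1.07 (0.94 to 1.20) and the laminin chain *Lama3* 1.06. *Cd44*, the hyaluronan receptor, was the one below 0, at -0.24 (-0.31 to -0.17).

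Of 20 spinous genes 15 were at least 2-fold lower and 2 higher, beside 6.8% and 10.3% of all genes, with a median of -1.93. *Krt10* was at 254 against 2246 CPM, a log2 ratio of -3.14 (-3.29 to -2.99), and 156 of its 361 UMIs in cycling cells lay in 1 cell. *Krt77* followed at -3.05 (-3.26 to -2.85). *Krt1* and *Krt10* belong to the gate sum but not to the cycling limit. Outside the gate genes, *Krtdap* and *Sbsn*, secreted products of differentiating keratinocytes, were at -2.46 (-2.58 to -2.35) and -2.74 (-2.85 to -2.63). The 2 higher genes were both Notch ligands, *Jag1* at 1.48 (1.22 to 1.72) and *Jag2* at 1.13 (0.54 to 1.67). All 16 measured cornified envelope genes were at least 2-fold lower, with a median of -2.74, from the plakin *Ppl* at -1.20 (-1.53 to -0.89) to *Sprr1b* at -4.46 (-4.85 to -4.10) and *Flg*. Of the 6183 UMIs of *Cst6*, a protease inhibitor of the cornified layer, 3076 lay in 1 of the 68 cells.

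**Figure D2:**
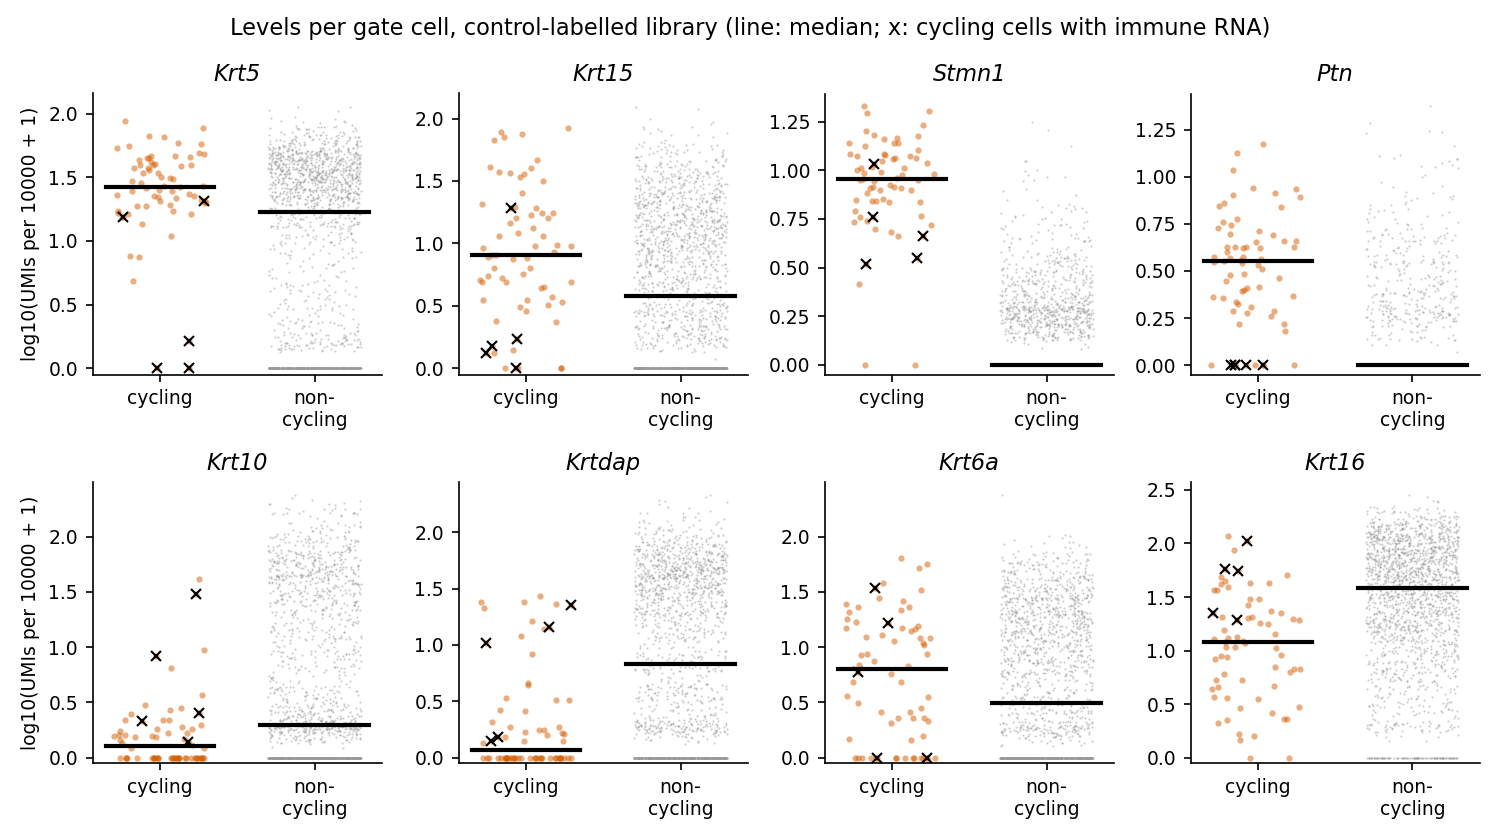
Each point is 1 control-labelled gate cell, its height the log10 of UMIs per 10000 UMIs of the cell plus 1, with 68 cycling cells on the left and 1892 non-cycling cells on the right of each panel; lines are medians and crosses are the 5 cycling cells with immune RNA. *Stmn1* and *Ptn* have medians of 0 in non-cycling cells only, *Krt5* and *Krt15* overlap broadly, and *Krt10*, *Krtdap* and *Krt16* sit lower in cycling cells.

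The gate holds basal and differentiating cells together, so both groups were also limited to cells with under 0.5% of UMIs in *Krt1* and *Krt10* and without immune RNA, which left 62 and 1478 cells. The basal median then became 0.38 with 2 of 19 genes at least 2-fold higher, the spinous median -1.59 with 14 of 20 genes at least 2-fold lower, and the cornified median -2.48 with all 16 lower. *Ptn* was at 2.36, *Jag1* at 1.32 and *Stmn1* at 3.63. The count of genes at least 2-fold higher was 719 and of lower ones 639, out of 9395.

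Cycling cells were not spread evenly over the layers. Of 1259 gate cells with under 0.1% of UMIs in *Krt1* and *Krt10*, 64 were cycling, or 5.08% (3.94 to 6.45), and these were 94.1% of the members. The share was 1.02% (0.211 to 2.95) of 294 cells with 0.1% to 0.5%, 0.269% (0.00681 to 1.49) of 372 with 0.5% to 2%, and 0 of 35 above that, which allows up to 10.0%. Depth ran the other way, from a median of 11630 UMIs in the lowest class to 22729 in the highest. In cells thinned to 5000 UMIs the share with a UMI of *Mki67* or *Top2a* was 6.45% (5.14 to 7.98) in the lowest class and 2.27% (0.986 to 4.43) at 0.5% to 2%, both below the share in mature dendritic cells.

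*Krt1*, *Krt10*, *Krt6a* and *Krt16* are gate genes and *Mki67* and *Top2a* set the numerator, so these shares describe values of the choice. A cell low in these keratins had to pass the gate on the other gate genes. Of 209 cells with under 0.1% of UMIs in *Krt6a*, *Krt6b* and *Krt16*, 7.18% (4.07 to 11.6) were cycling, of 813 with 0.1% to 0.5% 5.41% (3.96 to 7.20), and of 897 with 0.5% to 2% 1.00% (0.460 to 1.90). The interval of this class lies below those of the 2 lower classes, which overlap. Above 2%, 0 of 41 cells were cycling, which allows up to 8.60% and overlaps all of them. By *Krt15*, a keratin outside the gate sum, 0.752% (0.245 to 1.75) of 665 cells with 0 UMIs were cycling and 5.54% (3.99 to 7.47) of 722 with 10 or more. *Krt79*, a marker of the upper hair follicle, reached 3 UMIs in 547 gate cells, of which 2.38% (1.27 to 4.03) were cycling.

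**Figure D3:**
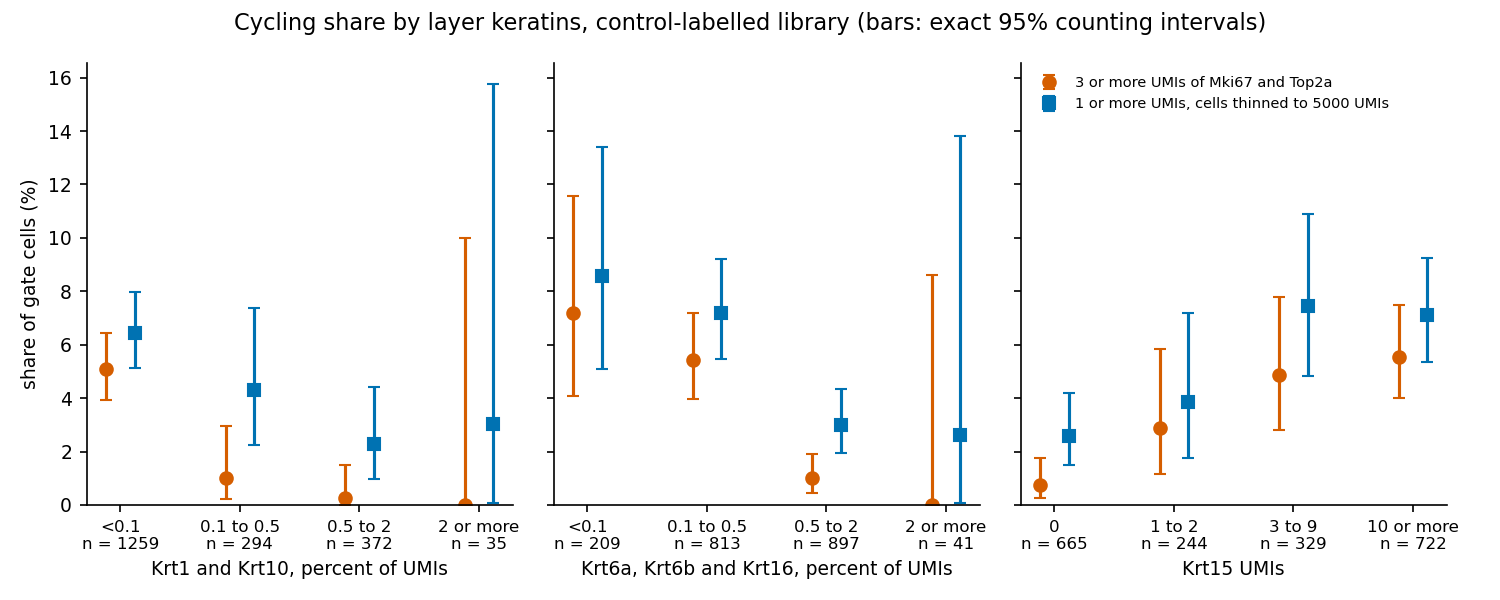
Share of control-labelled gate cells that were cycling (circles, 3 or more UMIs of *Mki67* and *Top2a*) and, after thinning to 5000 UMIs, share with at least 1 such UMI (squares), by *Krt1* and *Krt10*, by *Krt6a*, *Krt6b* and *Krt16*, and by *Krt15*, with exact 95% counting intervals and the number of cells under each class. Cycling shares are 5.08% in the lowest *Krt1* and *Krt10* class and 0.269% at 0.5% to 2%, and go from 0.752% to 5.54% with *Krt15*.

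Of 15 measured wound-activated genes 3 were at least 2-fold higher and 4 lower, beside 10.3% and 6.8% of all genes, with a median of -0.46. In the sums over cells *Krt6a* and *Krt17* were level, at 0.04 (-0.04 to 0.11) and 0.02 (-0.02 to 0.05). Their medians per cell were higher in cycling cells, at 5.37 against 2.12 and 34.3 against 20.2 per 10000 UMIs. *Krt16* was at 2262 against 5754 CPM, or -1.35 (-1.40 to -1.30). *Krt6b*, *Sprr1b* and *S100a9* were the other lower genes. The cytokine *Il24* was at 1.56 (1.39 to 1.73), from 322 UMIs in 26 cells, and the neutrophil chemokine *Cxcl1* at 1.13 (0.98 to 1.27), with 172 of 450 UMIs in 1 cell. *S100a8*, at 1.49 (1.14 to 1.83), owed 72 of its 78 UMIs to 1 cell. Of 19 genes of migration and wound matrix, a smaller share than the 10.3% and 6.8% of all genes passed 2-fold. In this list 1 was higher, the matrix protein *Tnc* at 1.33 (0.90 to 1.73), and 1 lower, the protease *Mmp9* with 1 UMI against 148, or -1.96 (-2.71 to -0.41).

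Of 18 measured hair follicle genes 3 were at least 2-fold higher and 4 lower, *Cst6* among them, beside 10.3% and 6.8% of all genes. In cells with low *Krt1* and *Krt10* and no immune RNA 1 of 18 was higher and 4 were lower. The stem cell receptor *Lgr6* was at 1.23 (0.45 to 1.94), the transcription factor *Barx2* at 1.17 (0.62 to 1.69), and *Postn*, also in the basal list, is given above. *Krt79* and *Defb6*, both of the upper follicle, were at -2.01 (-2.12 to -1.91) and -2.03 (-2.14 to -1.93), and the metallothionein *Mt4* at -2.40 (-3.32 to -1.57).

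In the EGF family 9 of 10 genes had ratios below 0 and none passed 2-fold. *Hbegf*, the heparin-binding ligand that is also the receptor for diphtheria toxin in primates, was at 443 against 819 CPM, or -0.88, *Erbb3* at -0.75 (-1.12 to -0.41) and the feedback inhibitor *Errfi1* at 0.07 (-0.06 to 0.20). Among 19 genes of other growth factors 3 were at least 2-fold higher, near the 10.3% of all genes, and 1 in cells with low *Krt1* and *Krt10* and no immune RNA. The 3 over all cells were *Pdgfb* at 1.53 (0.95 to 2.07), *Pdgfa* at 1.14 (0.70 to 1.55) and *Tgfb1* at 1.14, and *Pdgfb* had 13 of its 29 UMIs in 1 cell. The list of Notch, Wnt and Hippo genes, which holds receptors and ligands as well as targets, had 3 of 11 at least 2-fold higher. Over all genes the share was 10.3%. In cells with low *Krt1* and *Krt10* and no immune RNA 2 of 11 were. The 3 over all cells were *Ajuba* at 1.32, *Wnt10a* at 1.29 and *Cyr61* at 1.02, and *Amotl2* was lowest at -0.99 (-1.70 to -0.34).

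Immediate early genes, which also respond to tissue dissociation, had 0 of 16 members past 2-fold and a median of -0.09, from *Fosb* at -0.78 to *Ier3* at 0.73. No gene of the ribosome biogenesis list (20 measured), the glycolysis and hypoxia list (19) or the oxidative phosphorylation list (16) passed 2-fold either. Their medians were 0.29, 0.27 and 0.47, against 0.17 for all genes, and all 16 respiratory genes were above 0, up to the succinate dehydrogenase subunit *Sdhb* at 0.77 (0.50 to 1.03). These ratios are relative to the total RNA of a cell, and without that scaling the median of all genes was 0.73.

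The 5 immune RNA cells, which were picked for such UMIs, did not hold all immune transcripts. Outside them lay 139 of 550 T and NK UMIs and 35 of 219 macrophage UMIs, but 147 of 183 neutrophil UMIs and 2761 of 4066 dendritic and Langerhans UMIs. The counts of listed genes that follow stand beside 10.3% of all genes at least 2-fold higher and 6.8% at least 2-fold lower. Of 7 measured T and NK genes 6 were at least 2-fold higher, led by *Gzma*, *Nkg7* at 4.30 and *Gzmb* at 3.78. Over all 11 genes the sum was 386 against 66.8 CPM, and 107 against 57.2 CPM without the 5 cells, where *Nkg7* and *Gzmb* were at 0 UMIs, *Thy1* was the most abundant gene and 2 of 3 measured genes were higher. Of 7 macrophage genes 3 were higher, *Ptprc*, *Fcer1g* and *Tyrobp*, and 0 of 6 without the 5 cells. The macrophage sum was 154 against 54.9 CPM and, without the 5 cells, 27.0 against 42.5 CPM, so its direction turned, and *Lyz2*, which the gate limits, had 7 UMIs. The dendritic and Langerhans sum was 2856 against 2080 CPM, and 2133 against 1957 CPM without them, and its most abundant gene in both was *Epcam*, which keratinocytes express as well. *Cd207* had 1 UMI outside the 5 cells, whereas the antigen presentation gene *Cd74* stayed at 1.56 and *H2-Ab1* at 1.24. Fibroblast genes summed to 724 against 730 CPM, with *Postn* the most abundant at 376 CPM in cycling cells, 2 of 9 higher, *Postn* and *Fn1*, and 7 below 0, among them *Dcn* at -0.99 and *Col1a1* at -0.80. Neutrophil genes summed to 129 against 143 CPM, with 1 of 5 higher, the *S100a8* named above, and *S100a9*, *Cxcr2* and *Mmp9* lower. The direction of the neutrophil sum turned with a gate of 3%, where its log2 ratio was 0.45 and not -0.15. Of 6 endothelial and mural genes 0 were higher and 4 lower (*Acta2*, *Rgs5*, *Des* and *Notch3*), with sums of 23.9 and 48.2 CPM, a direction that turned with a mitochondrial limit of 10%, where the log2 ratio of the sums was 0.51 and not -0.98. Of 2 measured melanocyte and Merkel genes 1 was higher, *Krt18*, from 19 UMIs in 7 cells. What part these transcripts have in other ratios was measured by leaving the 5 cells out, and the centromere and kinetochore median was then 4.30 in place of 4.21.

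The cycling cells varied in the share of their UMIs from S phase and G2/M genes. Each cell's UMIs were summed over 55 S genes and 79 G2/M genes. S genes made up 0.126% to 0.902% of a cycling cell's UMIs, with a median of 0.299%, and G2/M genes 0.0508% to 1.13%, with a median of 0.615%. The medians of non-cycling cells were 0.171% and 0.109%. In 57 of 68 members the G2/M sum was the larger one and in 11 the S sum, which describes these 2 lists and is no phase call. Over the 68 cells the 2 percentages had a Spearman rho of 0.35 and a Pearson r of 0.39, with both sums taken from the same cells.

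The overlap with non-cycling cells was one-sided. Among those, 82 had an S percentage at or above the cycling median, 74 of them with 0 UMIs of *Mki67* and *Top2a*, whereas 1 had a G2/M percentage that high. Of the 1745 CPM of the S sum in non-cycling cells, 1213 CPM came from the polymerase and fork list. *Top1*, at 908 CPM the most abundant gene of that list in cycling cells, was lower there than in non-cycling cells. A high S percentage is therefore not read as a mark of S phase. At the other end, 4 members held under 0.2% G2/M UMIs, like 1701 of 1892 non-cycling cells, and none of the 4 was an immune RNA cell.

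**Figure D4:**
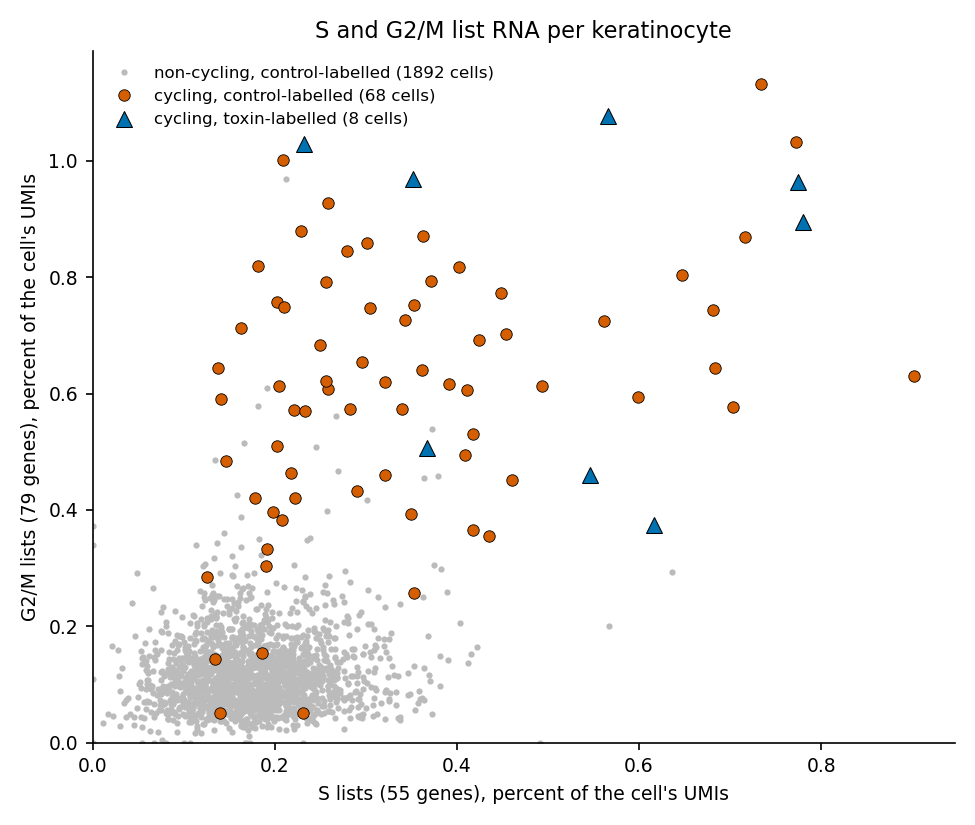
Each point is 1 gate cell, with the percent of its UMIs in 55 S genes across and in 79 G2/M genes upward: 1892 non-cycling (grey) and 68 cycling (orange) control-labelled cells and 8 cycling toxin-labelled cells (triangles). Most cycling cells lie above 0.2% on the G2/M axis and 4 lie below it, where 1701 of the grey points are. The other grey points overlap with some cycling cells, and some grey points reach high S values with low G2/M values.

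When the members were ordered by the ratio of G2/M to S UMIs, some other genes followed this order and others did not. In the 23 cells with the lowest ratio *Hist1h2ap* was at 315 CPM (264 to 373), in the next 23 at 139 and in the 22 with the highest at 62.7 (42.3 to 89.5). *Hist1h1b* stood at 181, 84.7 and 64.8 CPM, while the replacement histone *H2afz* stood at 1668, 1982 and 2068 CPM. The histone and chaperone list as a whole stood at 5738, 5866 and 6129 CPM, and *Hist1h1c* at 72.8, 65.4 and 81.5 CPM. The repair list as a whole was at 627, 350 and 257 CPM. *Mki67* was at 249, 140 and 209 CPM. Basal genes did not follow the order, with *Krt15* at 1355, 833 and 1986 CPM and *Ptn* at 268, 298 and 238 CPM. All 5 immune RNA cells were in the middle set.

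In the toxin-labelled library the 8 cycling cells were set against 210 non-cycling gate cells. With only 179406 UMIs in the cycling sum, 874 of 5622 genes (15.5%) were at least 2-fold higher and 859 (15.3%) at least 2-fold lower. Of the 1022 genes higher in the control-labelled library 312 reached 50 UMIs here, and 228 of these were at least 2-fold higher, 290 above 0 and 7 at least 2-fold lower. Of the 672 lower genes 366 could be measured, and 289 were at least 2-fold lower and 2 at least 2-fold higher.

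The same markers stood out there. *Stmn1* had 9, 26, 30, 17, 14, 25, 40 and 6 UMIs in the 8 cells, ordered by depth, and 931 against 56.9 CPM, or 4.01 (3.70 to 4.31). *Pclaf* had 9, 6, 21, 22, 29, 24, 8 and 1 UMIs, and a log2 ratio of 7.02 (6.33 to 7.73). *Krt5* had 45, 23, 35, 36, 117, 43, 112 and 159 UMIs, at 1.24 (1.11 to 1.37). All 8 cells lay in the class with under 0.1% of UMIs in *Krt1* and *Krt10*, and they held 3 UMIs of *Krt10* in all, against 1373 CPM in the non-cycling cells. *Krt15* had 17, 7, 24, 5, 14, 0, 7 and 5 UMIs, and its direction depended on the measure. The ratio of the sums was -0.40 (-0.74 to -0.08), but 1 non-cycling cell held 329 UMIs, and the median was 7 UMIs per cycling and 0 per non-cycling cell. Among the 13 cycling cells above the mitochondrial limit the ratio was 0.56. The 15 of 16 cornified genes and 12 of 16 spinous genes that were at least 2-fold lower, beside 15.3% of all genes, had the direction seen above.

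A few groups stood apart from the control-labelled values. Of 16 immediate early genes 8 were at least 2-fold higher, beside 15.5% of all genes in this library, and the median was 0.95. *Fos* had 2, 5, 1, 0, 162, 1, 2 and 20 UMIs in the 8 cells, so 1 cell held most of them, as it did for *Atf3* with 188 of 222. Without this cell 2 of 16 genes were higher, 3 were lower and the median was -0.10. In the EGF list 6 of 9 genes were at least 2-fold lower, beside 15.3% of all genes, and 8 without this cell. *Hbegf* had 3, 2, 0, 4, 2, 4, 2 and 3 UMIs, or 111 against 855 CPM. Of 15 wound-activated genes 8 were at least 2-fold lower and 1 higher, beside 15.3% and 15.5% of all genes. The median was -1.14, against -0.46 in the control-labelled library. Without the same cell 11 were lower, 1 was higher and the median was -2.50.

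**Figure D5:**
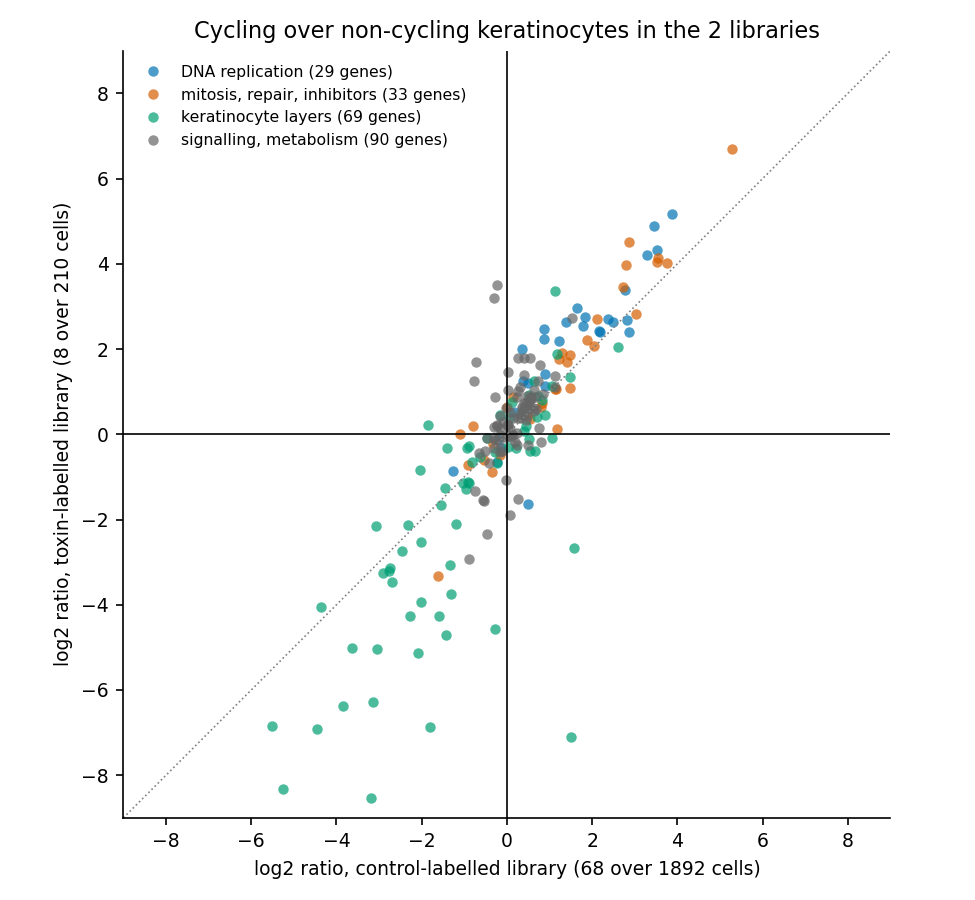
Each point is 1 listed gene with at least 50 UMIs in both libraries, with its log2 ratio of cycling over non-cycling keratinocytes in the control-labelled library across and in the toxin-labelled library upward; the dotted line marks equal ratios. The same sign in both libraries is seen in 28 of 29 replication genes and 30 of 33 genes of mitosis, repair and inhibitors. It is also seen in 59 of 69 layer genes and 69 of 90 signalling and metabolism genes. *S100a8* and *Il24* lie in the lower right.

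Set directly against each other, the 8 toxin-labelled and 68 control-labelled cycling cells differed in 227 of 3923 genes that were at least 2-fold higher in the toxin-labelled cells (5.79%) and 330 that were at least 2-fold lower (8.41%). *Mki67* was at 552 against 196 CPM, 1.49 (1.14 to 1.82), and *Top2a* at 468 against 296 CPM, 0.66 (0.31 to 1.00). *Krt5* and *Stmn1* were within counting error, at 0.10 (-0.03 to 0.23) and 0.14 (-0.10 to 0.38). *Krt15* was at 440 against 1377 CPM, -1.64 (-1.98 to -1.32). Library, treatment and the choice of 8 cells cannot be told apart in these values.

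Cycling macrophages and fibroblasts of the control-labelled library, found by the same limit of 3 UMIs, were set beside the keratinocytes. This limit was not scaled by depth and asks for a larger share of UMIs in shallower cells. Median depths were 12895.5 UMIs in gate cells, 5693 in macrophages and 11903.5 in fibroblasts. The G2/M sum was at 5993 CPM in cycling keratinocytes, 6843 in 18 cycling macrophages and 6698 in 24 cycling fibroblasts. The S sum was at 3363, 2856 and 3428 CPM. Relative to their own non-cycling cells the G2/M ratio was 2.27 (2.24 to 2.31) in keratinocytes, 2.77 (2.69 to 2.84) in macrophages and 3.03 (2.98 to 3.09) in fibroblasts, with non-cycling levels of 1241, 1004 and 817 CPM. The order was another one in the toxin-labelled library, where the ratio was 2.65 (2.56 to 2.73) in 8 cycling keratinocytes, 2.59 (2.53 to 2.65) in 24 macrophages and 2.30 (2.23 to 2.38) in 13 fibroblasts.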

How the data were processed

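Each of the 2 libraries (10x 3' chemistry) was deposited as a filtered matrix of UMI counts per gene and cell barcode, which the authors made with Cell Ranger 6.1.1 per the file headers, on the mouse build mm10. The deposited counts were used without normalization by the authors. The libraries held 12058 and 11031 cells with 105511870 and 81858751 UMIs, and 8326 and 7188 cells passed 500 genes and 6% mitochondrial UMIs. Members and gene lists were chosen with earlier results of these data known. With 1 library of 3 pooled mice per group, no test was run.

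UMIs were summed over cells and scaled to CPM, genes with at least 50 UMIs over both sums were compared after adding 1 CPM, and a log2 ratio of 1 was called at least 2-fold. Intervals were Clopper-Pearson for shares, exact Poisson for levels and conditional binomial for ratios. They, like the floor of 3 counts, cover counting error only. Calculations used Python 3.11.15 with numpy 2.4.6, scipy 1.17.1, pandas 2.3.3, matplotlib 3.10.9 and scanpy 1.11.5, and were tested on simulated counts. Doublets were kept, and Scrublet calls (expected rate 8%) were an alternative. Genes were named by rule: the 5 markers, the 10 highest and 10 lowest ratios among genes with at least 200 UMIs, and of each list up to 3 genes with the highest and up to 2 with the lowest ratio. Other genes, such as *Krt16*, *Krt6a*, *Krt17*, *Krt79*, *Krtdap*, *Sbsn*, *Cdkn1a*, *Ccnd1*, *Ccnd2*, *Lama3*, *H2afz*, *Fos* and *Atf3*, were chosen after their values were seen. Alternatives changed the limits on cells, the gate, the added CPM, the scaling, the depth and the reference cells.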

Additional observations from a re-analysis of the deposited data

Results flagged for a closer look

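Cells above the mitochondrial limit were outside the comparisons, and cycling keratinocytes occurred among them. In the control-labelled library 43 of 712 gate cells above 6% mitochondrial UMIs were cycling, or 6.04% (4.40 to 8.05), and in the toxin-labelled library 13 of 337, or 3.86% (2.07 to 6.51). The 43 cells had log2 ratios to their non-cycling neighbours of 0.63 for *Krt5*, 0.72 for *Krt15*, 3.41 for *Stmn1*, -2.88 for *Krt10* and -0.41 for *Krt6a*, which was at 0.04 within the limit, and 97.7% of them had low *Krt1* and *Krt10*.

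Of 255 listed genes measured in both libraries, 3 were at least 2-fold higher in cycling cells of the control-labelled library and at least 2-fold lower in those of the toxin-labelled one. These differences were not tested. *H2-Ab1*, an MHC class II gene, was at 1.88 and -1.33, with 178 of its 271 control-labelled UMIs in 1 cell. *S100a8* was at 1.49 and -7.11, with 72 of 78 UMIs in 1 control-labelled cell and 0 UMIs in the 8 toxin-labelled cells. *Il24* was at 1.56 and -2.67, from 26 control-labelled cells and 2 toxin-labelled UMIs.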

How the results depend on the processing

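No paired analysis was possible because each group was 1 library and the labels give no replicate numbers. The control-labelled cycling share of 3.47% became 2.60% at 5 UMIs of *Mki67* and *Top2a*, 1.96% with a gate of 3%, 0% of 146 cells at no more than 2000 genes and, chosen after seeing the data, 6.04% in cells above the mitochondrial limit. The toxin-labelled share of 3.67% became 1.97% (3 of 152 cells) with a gate of 3% and 0% of 14 cells at no more than 2000 genes, and that limit left no members for the other results. The 1022 of 9882 genes at least 2-fold higher became 539 of 7726 in cells above the mitochondrial limit and 504 of 7108 at 200 UMIs. With the same 9882 genes measured, they became 369 with 10 CPM added and 3242 without scaling by depth. After thinning to 5000 UMIs 793 of 7853 genes were at least 2-fold higher and 887 lower. The 672 lower genes became 239 with 10 CPM added and 347 without scaling. Higher genes were 60.3% of all calls, against 90.3% without scaling, where the median of all genes was 0.73 and not 0.17, and 47.2% after thinning to 5000 UMIs. The macrophage and monocyte sum, at 1.47, turned to -0.63 without the immune RNA cells and to -0.75 when *Krt1* and *Krt10* were limited as well. The endothelial and mural sum, at -0.98, became 0.51 at a mitochondrial limit of 10% and 1.62 in cells above the limit. With a gate of 3% the neutrophil sum, at -0.15, became 0.45 and the fibroblast sum, at -0.01, became 0.48. The dendritic and Langerhans sum, at 0.46, became -0.23 in cells above the mitochondrial limit. Without scaling, the EGF, inhibitor and wound-activated sums, at -0.47, -0.37 and -0.54, became 0.12, 0.23 and 0.05. In all, 30 of 512 list sums under alternatives, in 10 lists, had another direction. The cause of the other shifts was not tested. The toxin-labelled values rest on 8 cells with 179406 UMIs.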
